A study of Mus musculus with 2 samples.

Results

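The levels of 9 long noncoding RNAs, of 24532 genes in the deposited table, were compared between mouse E14 embryonic stem cells (ESCs) and E14-Sox2TA/WT cells. Snhg1, Snhg3, Snhg5, Snhg6, Snhg8, Snhg12 and Gas5 are host genes of small nucleolar RNAs (snoRNAs), and Malat1 and Neat1 make RNAs that stay in the nucleus. The rule that picked them used gene names, but the set was proposed with earlier results of these data known. E14 is an established mouse ESC line. E14-Sox2TA/WT cells derive from E14 and carry the T258A change, made with CRISPR-Cas9, in 1 allele of Sox2, which encodes a pluripotency transcription factor. The question of the comparison was which transcripts differ when threonine 258 of Sox2, a site of O-GlcNAc modification, is replaced. The study's methods describe E14 cells grown with serum and LIF. Mutant clones were grown from single cells with the inhibitors PD0325901 and CHIR99021 (2i), and 2i was removed before use, so genotype, clonal origin and culture history cannot be told apart. Polyadenylated RNA gave 1 library per genotype. The differences below could not be checked in replicates, and no test was made.

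A snoRNA host gene is transcribed and spliced, and its snoRNAs are cut out of the introns. The snoRNAs guide the 2′-O-methylation or pseudouridylation of ribosomal RNA, and the spliced remainder often carries a 5′ terminal oligopyrimidine (5′TOP) start like that of ribosomal protein mRNAs and is often degraded by nonsense-mediated decay during translation. Gas5 is named for its accumulation in growth-arrested cells. Malat1 RNA gathers in nuclear speckles, where splicing factors are stored, and Neat1 RNA is the scaffold of paraspeckles, nuclear bodies built on its long isoform.

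The E14 library held 60263536 reads and the E14-Sox2TA/WT library 44609228. Sox2 itself had a TPM (abundance scaled to transcript length and library sum) of 372.5 in E14 and 274.2 in E14-Sox2TA/WT cells, and its reads do not tell the alleles apart. All 7 ESC markers examined were abundant, at 290 to 6877 TPM in E14 and 251 to 4429 TPM in E14-Sox2TA/WT cells, and 3 were higher and 4 lower. Nanog was lowest by ratio, at 526.9 and 251.3 TPM (log2 ratio -1.07), Utf1 was highest at 0.24, and Pou5f1 was at 0.03. The markers of blood cells and hepatocytes were at 0 to 2 reads. Of the fibroblast markers, Postn, Dcn and Lum had 0 reads in both libraries, where the limit of 3 reads allows 0.0498 and 0.0673 CPM (reads scaled to the library total). The summed TPM of the 7 fibroblast markers was 43.1 in E14 and 16.6 in E14-Sox2TA/WT cells. Most of this sum was Thy1, at 40.1 and 11.4 TPM. Col1a1 had 2.66 and 2.95 TPM. Col1a2 and Col3a1 were higher in E14-Sox2TA/WT cells at low levels. Col1a2 had 43 and 109 reads, or 0.26 and 0.98 TPM, and Col3a1 had 15 and 151 reads, or 0.08 and 1.28 TPM. The part of other cells in the results was not tested. In bulk RNA, a change in the number of cells that make a transcript cannot be told apart from a change in RNA per cell.

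Of the 9 RNAs, only Neat1 differed more than 2-fold between the libraries, and it was higher in E14-Sox2TA/WT cells. All 9 passed the filter of the comparison, which kept genes reaching 10 TPM in either library. Over the 9094 genes that passed it, 4.17% were more than 2-fold higher and 4.07% more than 2-fold lower. Counted over the genes with noncoding transcripts only, these shares were 13.1% and 7.2% of 236. The other 8 RNAs were within 1.5-fold, as were 75.3% of all genes that passed, and 6 of the 9 were higher, against 57.3% of all.

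**Figure D1:**
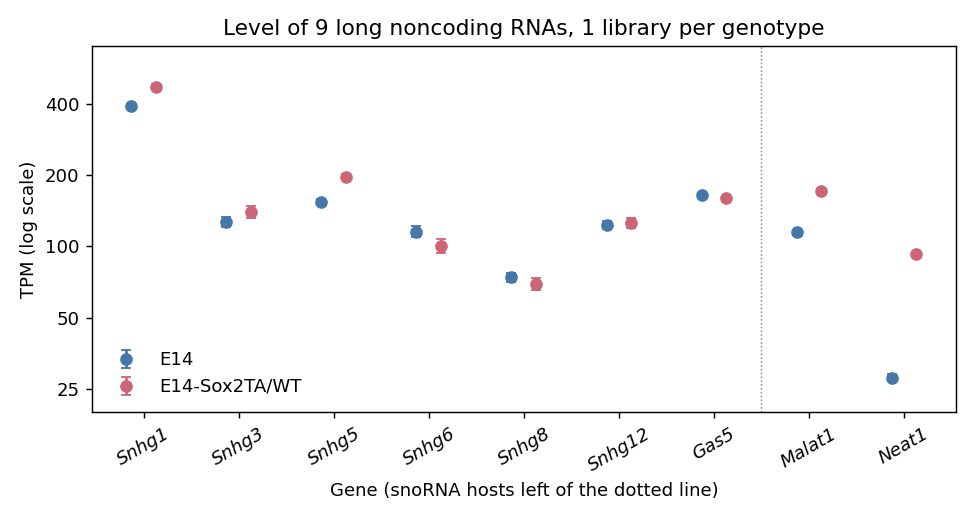
TPM (log scale) of each of the 9 RNAs in the E14 library and in the E14-Sox2TA/WT library, with 95% counting intervals and 1 library per genotype. Neat1 stands at 28.0 TPM in E14 and 92.6 TPM in E14-Sox2TA/WT cells, whereas each of the 7 snoRNA hosts left of the dotted line has similar values in both.

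Neat1 had 2856 reads in E14 and 6303 in E14-Sox2TA/WT cells, although the second library was the smaller. This corresponded to 47.4 and 141.3 CPM and to 28.0 TPM (95% counting interval 27.0 to 29.1) and 92.6 TPM (90.3 to 94.9). The ratio of TPM was 3.31 (3.16 to 3.46), or 1.72 on the log2 scale. Counting intervals were exact, Poisson for a level and Clopper-Pearson for a ratio. They account for counting alone: PCR copies are no independent molecules, and the spread between cultures is unknown. The Neat1 ratio was 77th from the highest of 9094 genes and 12th of the 236 noncoding ones. Under 9 other scalings, pseudocounts, units and corrections it stayed between 1.58 and 1.72.

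The Neat1 row joins 2 RefSeq transcripts, the short and the long isoform. They start together on the minus strand of chromosome 19 (GRCm38.p6), within 5824708 to 5845480. In GENCODE M21 the long one is a single exon of 20771 bases, and the short one has 3004 bases in 2 exons. The short isoform ends at a polyadenylation signal, whereas the long isoform runs past it and ends in a structure that is not polyadenylated. The end of the short transcript is shown because it marks where the isoforms part, with the signal in capitals 14 bases before the last base (60 bases, chr19:5842307-5842366, minus strand, GRCm38, GENCODE):
Neat1 short 3′ end: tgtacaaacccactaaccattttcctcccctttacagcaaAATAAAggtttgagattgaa
The transcript length that relates the deposited reads to the deposited FPKM was 3245 bases in E14 and 3232 bases in E14-Sox2TA/WT cells, close to the short model and far from the long one. The TPM of Neat1 therefore describes a row scaled almost as the short isoform, in polyadenylated RNA. The table does not separate the isoforms, and the level of the long, paraspeckle-forming one was not measured.

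Malat1 lies 22036 bases from Neat1 on the same strand, as a single exon of 6983 bases at chr19:5795690-5802672. It had the most reads of the 9, with 25328 in E14 and 25296 in E14-Sox2TA/WT cells, or 420 and 567 CPM. Its TPM was 115.2 (113.7 to 116.6) and 171.6 (169.5 to 173.8), a ratio of 1.49 (1.46 to 1.52) or 0.58 on the log2 scale. Of the 9094 genes, 85.5% had a lower ratio. Long transcripts as a class were higher in E14-Sox2TA/WT cells, and the 442 genes with transcripts of 5742 to 7200 bases had a median log2 ratio of 0.40. With the trend on transcript length and GC content removed, the log2 ratio of Malat1 was 0.08. The 441 genes in the length class of Neat1, 2895 to 3117 bases, had a median of 0.10, and 99.3% of them lay below Neat1, whose log2 ratio was 1.61 with the trend removed.

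The TPM of Neat1 equalled 24.3% of that of Malat1 in E14 and 53.9% in E14-Sox2TA/WT cells. This ratio is taken within each library and does not depend on the scaling between libraries. Each value rests on 1 library.

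The 3′ end of Malat1 is made without a poly(A) polymerase. RNase P cuts the primary transcript before a tRNA-like element, which is released as mascRNA, and leaves Malat1 with an A-rich tail that the genome encodes. The junction is shown because this tail is what the transcript offers in polyadenylated RNA, with the 58 bases of mascRNA in capitals after the last 40 bases of Malat1 (chr19:5795924-5796021, minus strand, GRCm38, GENCODE):
Malat1 and mascRNA: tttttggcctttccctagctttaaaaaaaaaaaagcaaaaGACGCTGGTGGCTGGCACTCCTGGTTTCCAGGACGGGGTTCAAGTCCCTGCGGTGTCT
The longest run of A before the cut has 12 bases. The row of mascRNA held 1 read in each library, so its level was not detectable at this depth in this kind of RNA.

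**Figure D2:**
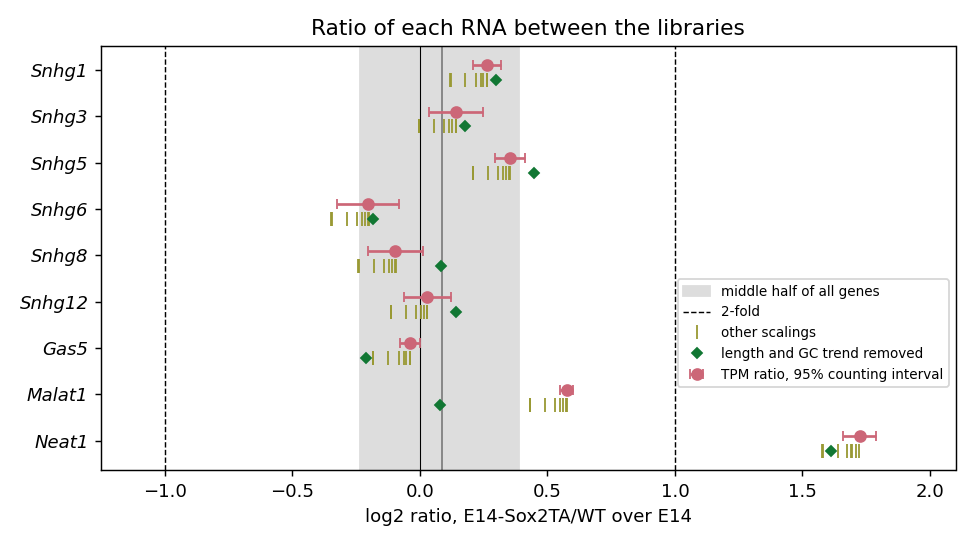
log2 ratio of TPM (E14-Sox2TA/WT over E14) for each RNA with its 95% counting interval, beside the same ratio under other scalings and with the trend on length and GC content removed. The grey band is the interquartile range of the 9094 genes, -0.23 to 0.39, and Neat1 is the only one of the 9 past the dashed 2-fold line, under every scaling drawn.

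The 7 snoRNA hosts lay close together. Their log2 ratios spanned 0.55, from Snhg6 at -0.20 to Snhg5 at 0.35, with a median of 0.03 beside a median of 0.08 over all 9094 genes. With the trend on length and GC content removed, the median of the hosts was 0.14 beside 0.0 over all genes. Of the 7, 4 were higher and 3 lower in E14-Sox2TA/WT cells. The counting interval lay above 0 for 3, below 0 for 1 and included 0 for 3. Their summed TPM was 1147 in E14 and 1259 in E14-Sox2TA/WT cells, a ratio of 1.10.

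Snhg5 was the highest of these by ratio, with 4882 reads and 153.4 TPM in E14 and 4177 reads and 195.9 TPM in E14-Sox2TA/WT cells, a log2 ratio of 0.35 (0.29 to 0.41). Snhg5 hosts C/D box snoRNAs of the Snord50 family. Snhg1, which hosts Snord22 and several C/D box snoRNAs beside it, had 5850 and 4705 reads and the highest TPM of the 9 in both libraries, 390.1 and 468.4, a log2 ratio of 0.26 (0.21 to 0.32). Snhg3, which hosts the H/ACA snoRNAs Snora73a and Snora73b, had 1745 and 1289 reads and 126.7 and 139.8 TPM, a log2 ratio of 0.14 (0.04 to 0.25). Snhg1 and Snhg5 were higher under each of the 9 alternative settings, whereas Snhg3 was level on the CPM scale, at -0.003.

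Snhg3 is uncertain for another reason. Its transcripts share 31-base words with those of other genes, among them an antisense gene and transcripts of Rcc1 that run through Snhg3. Matches on either strand came to 81.8% of its number of words, and a word matched on both strands counted for each. The snoRNA genes inside a host counted as other genes. How such reads were assigned is not given in the sources used here. The reads of Snhg3 and Rcc1 summed gave, on the CPM scale, a log2 ratio of 0.18. Rcc1 held 8998 of the 10743 summed reads in E14, so this value mostly describes Rcc1 and says little about Snhg3. Among the other 8 RNAs such matches, counted in the same way, came to 2.86% to 14.7%.

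Gas5 and Snhg12 were nearly level by TPM ratio. Gas5 had 13224 reads in E14 and 8628 in E14-Sox2TA/WT cells, and its TPM was 164.4 (161.6 to 167.2) and 160.1 (156.7 to 163.5), a log2 ratio of -0.04 (-0.08 to 0.00). Gas5 was lower under each of the 9 settings, at -0.18 on the CPM scale and -0.21 with the trend on length and GC content removed. Snhg12 had 2351 and 1608 reads and 123.1 and 125.7 TPM, a log2 ratio of 0.03 (-0.06 to 0.12), and its direction turned under 4 of the 9 settings, down to -0.11.

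Snhg6 and Snhg8 were the lowest by TPM ratio. With the trend on length and GC content removed, Gas5 at -0.21 was below Snhg6 at -0.19. Snhg6, host of Snord87, had 1481 and 862 reads and 115.5 and 100.3 TPM, a log2 ratio of -0.20 (-0.33 to -0.08), and was lower under each of the 9 settings. Snhg8, host of the H/ACA snoRNA Snora24, had 1831 and 1147 reads and 74.0 and 69.2 TPM, a log2 ratio of -0.10 (-0.20 to 0.01) that became 0.08 with the trend on length and GC content removed. Short transcripts as a class were lower in E14-Sox2TA/WT cells. The 443 genes of 62 to 719 bases, the class of Snhg1, Snhg3, Snhg6 and Snhg12, had a median log2 ratio of -0.11, and the class of Snhg8, 720 to 979 bases, had a median of -0.19.

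The hosts lie on chromosomes 1, 3, 4, 9 and 19 (RefSeq, GRCm38.p6). Snhg1 is at chr19:8723487-8726326 and Gas5 at chr1:161034601-161038539, both on the plus strand. Snhg6 is at chr1:9942025-9944118, Snhg5 at chr9:88521052-88522897 and Snhg8 at chr3:123507552-123508336, all on the minus strand. Snhg12, at chr4:132308678-132311024 on the plus strand, and Snhg3, at chr4:132351933-132353686 on the minus strand, are near each other, and the 609 genes of chromosome 4 that passed the filter had a median log2 ratio of 0.07.

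Ordered by TPM, E14 cells had Snhg1 first, then Gas5, Snhg5, Snhg3, Snhg12, Snhg6, Malat1, Snhg8 and Neat1. The counting intervals of Snhg3 and Snhg12, of Snhg12 and Snhg6, and of Snhg6 and Malat1 overlapped. In E14-Sox2TA/WT cells the order was Snhg1, Snhg5, Malat1, Gas5, Snhg3, Snhg12, Snhg6, Neat1 and Snhg8, and Snhg6 and Neat1 overlapped. Neat1 was last in E14 and passed Snhg8 in E14-Sox2TA/WT cells. The position of Gas5 rests on its transcript model. The length that relates its reads to its FPKM was 2559 bases, close to a model of 2556 bases that GENCODE classes as a retained intron, so its TPM is scaled to that length in both libraries. The same class of model, of 776 bases, is nearest for Snhg8.

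**Figure D3:**
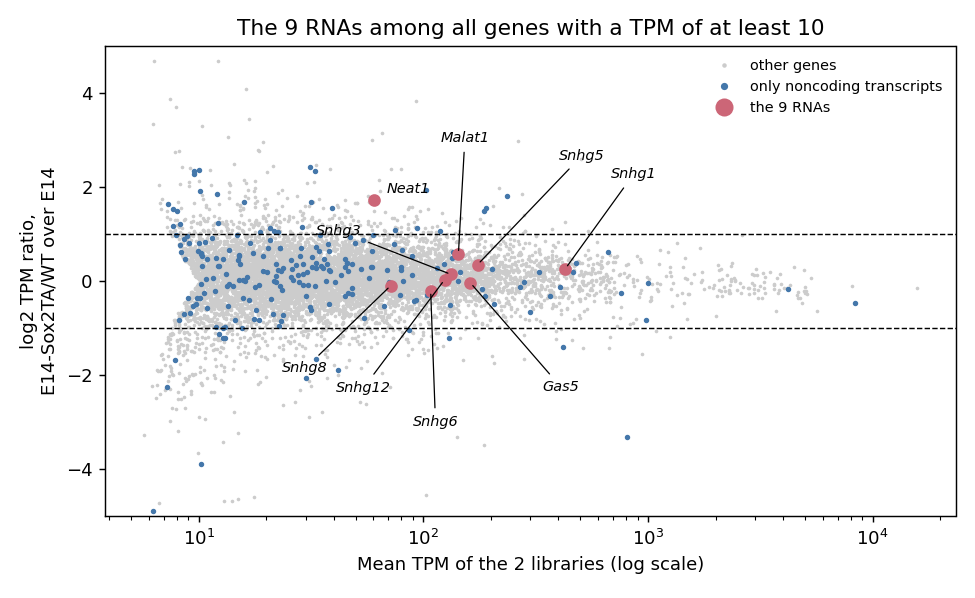
log2 ratio of TPM against the mean TPM of both libraries (log scale) for 9082 of the 9094 genes that reached 10 TPM in either library; 12 genes lie outside the drawn range. Neat1 lies above the dashed 2-fold line, and the other 8 RNAs lie between the dashed lines among genes of like expression.

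The starts of the hosts were compared in the RefSeq promoter table of GRCm38.p6, which held 6 of the 7 hosts and Malat1. TATAAA or TATATA on the given strand, 40 to 16 bases before the start, was found in 4 of the 6 hosts. Counted by promoter, with 2 starts for Gas5, this was 4 of 7, beside 2.73% of the 32851 promoters of 27025 genes. On the reverse strand 1.51% of promoters held either. TATATA reads the same on both strands, and the Snhg1 window has a match on the reverse strand only. The 4 windows are shown because these hosts share the motif. They run from 45 bases before to 30 bases after the start, with the match in capitals:
Snhg5, chr9:88522868-88522942, minus strand: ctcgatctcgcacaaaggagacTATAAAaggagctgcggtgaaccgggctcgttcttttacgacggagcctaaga
Snhg8, chr3:123508307-123508381, minus strand: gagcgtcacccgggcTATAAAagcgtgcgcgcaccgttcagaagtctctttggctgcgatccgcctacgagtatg
Snhg12, chr4:132308633-132308707, plus strand: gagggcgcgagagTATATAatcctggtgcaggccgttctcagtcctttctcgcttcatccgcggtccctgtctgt
Gas5, chr1:161035121-161035195, plus strand: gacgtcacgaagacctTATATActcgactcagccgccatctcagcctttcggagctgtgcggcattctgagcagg
Gas5 has an earlier start in the table as well, and no match was found there, nor at Snhg3 or Malat1. The longest run of pyrimidines near the start had 9 bases in Snhg1, where it begins at base 5 of the transcript, and 9 in Snhg12, 7 in Snhg8, 6 at the second start of Gas5, 5 in Snhg3 and 3 in Snhg5 and at the first start of Gas5. Runs of at least 9, 7, 6, 5 and 3 bases were present at 6.89%, 14.1%, 21.0%, 32.9% and 67.8% of promoters. Among the 4 genes with a match, the log2 ratios were 0.35, -0.10, 0.03 and -0.04, and only the counting interval of Snhg5 excluded 0. A match is a description of letters and not a measured binding site.

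The annotation places 10 snoRNA genes inside Gas5, 8 inside Snhg1, 5 inside Snhg12, 2 each inside Snhg3 and Snhg5, and 1 each inside Snhg6 and Snhg8. Of these, 8 had rows of their own in the table, and 7 of the rows had at least 20 reads, all in introns of the host model. Of the 7, 6 were higher and 1 lower in E14-Sox2TA/WT cells, and 5 lay above the ratio of their host. Over all 74 snoRNA rows with at least 20 reads, 81.1% were higher, with a median log2 ratio of 0.37, so the rows inside the hosts, with a median of 0.26, followed the table.

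The snoRNAs that differed from their host by most are shown with the C box (TGATGA) and D box (CTGA) of a methylation guide, or the ACA of a pseudouridylation guide, in capitals (GRCm38, GENCODE):
Snord47 in Gas5, chr1:161038082-161038158, plus strand: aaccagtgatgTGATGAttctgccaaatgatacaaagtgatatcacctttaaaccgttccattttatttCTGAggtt
Snord99 in Snhg12, chr4:132310691-132310764, plus strand: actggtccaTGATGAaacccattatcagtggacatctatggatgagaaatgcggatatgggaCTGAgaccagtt
Snora61 in Snhg12, chr4:132310240-132310369, plus strand: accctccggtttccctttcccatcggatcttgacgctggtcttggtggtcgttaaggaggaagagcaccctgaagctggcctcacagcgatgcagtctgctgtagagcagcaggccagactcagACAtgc
Snord99 had 82 reads in E14 and 86 in E14-Sox2TA/WT cells, a log2 TPM ratio of 0.65 (0.19 to 1.10). Snora61 had 143 and 139 reads, a ratio of 0.53 (0.18 to 0.88), whereas Snora44 and Snora16a in the same host had 98 and 72 and 107 and 64 reads, with ratios of 0.13 and -0.18. Their counting intervals, -0.33 to 0.58 and -0.65 to 0.28, overlapped those of Snord99 and Snora61. In RefSeq the snoRNAs of these rows are shorter than the GENCODE sequences shown. Snord47 has 65 bases in place of 77, Snord99 has 56 in place of 74, and Snora61 has 62 in place of 130.

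Snord47 had 222 and 192 reads, a log2 TPM ratio of 0.37 (0.08 to 0.65) against -0.04 for Gas5. Snord22 in Snhg1 had 729 and 585 reads and a ratio of 0.26, the same as its host to 2 decimals. Snord87 in Snhg6 had 96 and 70 reads and a ratio of 0.12 (-0.34 to 0.58). Snora24, in an exon of the Snhg8 model, had 1 read in each library. Mature snoRNAs are not polyadenylated, so reads of the snoRNA and of unspliced host RNA cannot be told apart in these rows.

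The neighbouring genes examined gave no common direction. Frmd8, 5494 bases from Neat1, had a log2 TPM ratio of 0.05 (-0.03 to 0.12). The 311 genes of chromosome 19 that passed the filter had a median of 0.08. Both values were below the ratio of Neat1 at 1.72.

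Beside the hosts, Slc3a2, the heavy chain of amino acid transporters, starts 118 bases from Snhg1 in the opposite direction. It was lower, with 23055 and 9516 reads and a log2 ratio of -0.71 (-0.75 to -0.68), whereas Snhg1 and its other neighbour Wdr74, a ribosome assembly factor, were higher at 0.26 and 0.37. Syncrip, an RNA-binding protein gene 38461 bases from Snhg5, was higher at 0.92. Zfp949 on the other side was at 0.18 and under the filter of 10 TPM.

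Rcc1, the exchange factor of Ran, and Phactr4 beside Snhg3 were at 0.35 and 0.32. Around Snhg6, Sgk3 was at -0.44 and Tcf24 at -0.58, both under the filter of 10 TPM, and Mcmdc2, which overlaps it, had 50 and 10 reads. Around Snhg12, Trnau1ap was at -0.40 and Rab42 had 39 and 10 reads. Prss12 and Ndst3 beside Snhg8 had 3 reads each in E14 and 0 in E14-Sox2TA/WT cells. Around Gas5, Zbtb37 was at 0.76 and under the filter, Cenpl was at 0.07, and Serpinc1 had 5 and 0 reads. Zbtb37 overlaps the RefSeq span of Gas5 but ends before the start of its model of 2556 bases. Reads of overlapping genes may be shared, since use of strand in counting is not given in the sources used here.

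**Figure D4:**
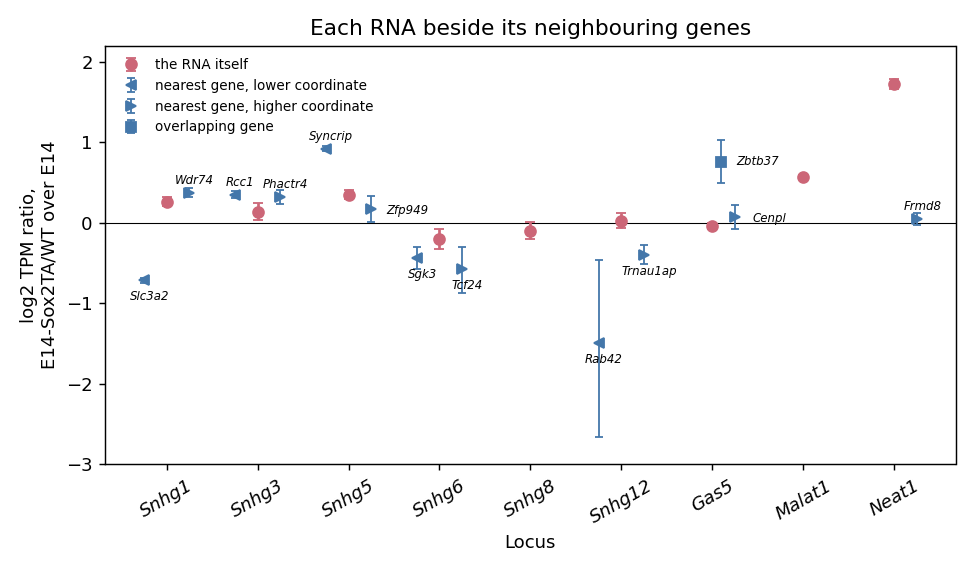
log2 ratio of TPM with 95% counting intervals for each of the 9 RNAs (circles) and for the neighbouring and overlapping genes described whose mean reached 1 TPM. Slc3a2 at -0.71 lies beside Snhg1 at 0.26, and Frmd8 at 0.05 lies beside Neat1 at 1.72.

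The other genes of the same pathways were taken from lists and described where their mean over both libraries reached 1 TPM. Of all 13269 such genes 53.2% were higher, with a median log2 ratio of 0.04. On the CPM scale, the median of the genes past the filter of 10 TPM was -0.06 in place of 0.08. List medians given on that scale are to be read beside this value. Counts past 2-fold in the lists are to be read beside the 8.24% of the 9094 genes that were past 2-fold either way. The list of other noncoding snoRNA hosts had 6 of 14 higher and a median of -0.01, which ran from -0.15 to 0.13 over the settings. The value of 0.13 was with the trend on length and GC content removed, which applied to only 9 genes of this list. The genes of this list were more spread than the 7, and 9 of the 14 lay farther from 0 than any of the 7. The interquartile range of the 13269 genes was -0.35 to 0.39. Snhg9, Snhg10 and Snhg18, all among the 9 that lay farther from 0, were under the filter of 10 TPM, where counting error is larger. Snhg10 had 44 and 23 reads and Snhg18 had 249 and 114, whereas the lowest count among the 7 was 862. Mir17hg, highest on the list, was 3.23-fold higher, with 1107 and 2395 reads and a log2 ratio of 1.69, but it hosts the microRNAs of the miR-17 cluster and not snoRNAs. Without it 5 of 13 were higher, the median was -0.02 and 8 lay farther from 0. Epb41l4aos was lower at -1.20, with 2473 and 723 reads. Of the 11 listed genes past the filter these were the 2 past 2-fold, or 1 of 10 without Mir17hg, against 8.24% of all. Snhg9 had the next highest ratio at 1.39, but on 8 and 14 reads.

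Of 23 protein-coding snoRNA hosts, 16 were higher, with a median of 0.30. With the trend on length and GC content removed, 13 of 23 were higher and the median was 0.15. They ran from Dkc1, the pseudouridine synthase of H/ACA snoRNPs, at -0.40 to the chaperone gene Hspa8 at 0.99, and 0 were past 2-fold. The snoRNP core and assembly proteins had 16 of 19 higher at a median of 0.15, which was 0.00 on the CPM scale. Naf1, an assembly factor of H/ACA particles, was past 2-fold at 1.22, with 3202 and 5009 reads, and Dkc1 was again the lowest. Nop56 and Dkc1 stand on both lists.

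Of the 18 factors of nonsense-mediated decay, 17 were higher, with a median of 0.31 that ran down to 0.17 on the CPM scale, and 13 of 18 were higher with the trend removed. The kinase Smg1 was highest at 0.77, Smg9 was lowest at -0.30, and 0 were past 2-fold. Of 17 mRNAs with a 5′TOP start outside the ribosomal proteins, 8 were higher and 9 lower, with a median of -0.03. Pabpc1, the cytoplasmic poly(A)-binding protein, was lowest at -0.75. Hnrnpa1 stood highest at 2.60, with 7809 and 31172 reads, but it shares 31-base words with other genes. These matches, counted as for Snhg3, came to 46.1% of its number of words. Its copy Gm10052 went from 64040 to 4282 reads, and the TPM of both summed gave -0.67, so the value of Hnrnpa1 alone is uncertain.

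Proteins of paraspeckles, the bodies that Neat1 scaffolds, had 15 of 18 higher at a median of 0.29, or 0.15 on the CPM scale. Tardbp, an RNA-binding protein that binds Neat1, was highest at 0.80, Zc3h6 was lowest at -1.18 and under the filter, and 0 of the 17 past the filter were past 2-fold. The ratio of Tardbp, the highest of the list, was below that of Neat1 at 1.72. All 16 proteins of nuclear speckles, where Malat1 RNA gathers, were higher, at a median of 0.58 and 0.29 with the trend removed, where 15 of 16 were higher. Son, a speckle scaffold with 15043 and 20335 reads, was at 1.01 (0.98 to 1.04), on the 2-fold line, and Rnps1 was lowest at 0.04. The median of this list and the ratio of Malat1 were both 0.58. With the trend removed they were 0.29 and 0.08, and a link between them was not tested.

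The enzymes of the RNase P and RNase Z pathway, which process the Malat1 end, had 8 of 13 higher at a median of 0.09. This median was -0.05 on the CPM scale, beside -0.06 over the genes past the filter. The enzymes ran from Rpp21 at -0.71 to Trnt1 at 0.63. Other long noncoding RNAs had 10 of 19 higher at a median of 0.21, which was 0.07 on the CPM scale and 0.35 over the 11 of them to which the trend correction applied. Of 11 past the filter, Meg3, an imprinted RNA, at 1.49 and Rpph1, the RNA of RNase P, at 1.05 were more than 2-fold higher, and Lncenc1 at -1.04, Platr14 at -1.88 and Epb41l4aos, which stands on both lists, were more than 2-fold lower. Rpph1 had 151 and 209 reads, and its counting interval, 0.74 to 1.36, included the 2-fold line. That of Lncenc1, -1.09 to -0.98, did so as well. Rmrp was lowest at -1.97 on 47 and 9 reads, under the filter. Neat1 had a higher ratio than each of these 19. The list does not hold all noncoding genes, and among the 236 past the filter Neat1 was 12th by ratio. Of those 236, 13.1% were more than 2-fold higher and 7.2% more than 2-fold lower, against 4.17% and 4.07% of all genes past the filter.

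**Figure D5:**
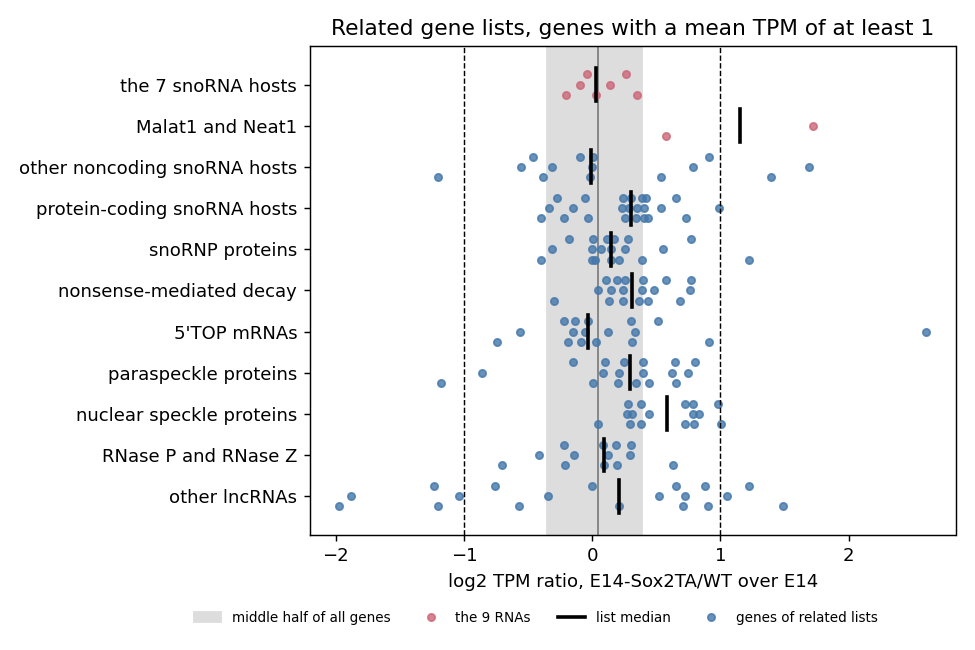
log2 ratio of TPM for the genes of each list whose mean reached 1 TPM, with the list median as a black bar. The grey band is the interquartile range of the 13269 genes with that mean, -0.35 to 0.39, the 7 snoRNA hosts lie inside it, and Neat1 lies past the dashed 2-fold line.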

How the data were processed

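Polyadenylated RNA of E14 and E14-Sox2TA/WT cells was sequenced on a NovaSeq instrument, 1 library each. The submitters' processing notes name bcl2fastq 2.20.0, Trimmomatic, HISAT2 2.1.0 and StringTie 2.1.3b, and the builds hg19 and mm10. The table used here is for mm10 (GRCm38). Its read counts, as deposited, were not normalized. The FPKM values deposited by the authors are scaled to transcript length and fragments, and the TPM values deposited by the authors are scaled to a library sum. The use of strand and the handling of reads from several genes are not given in the sources used here.

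Genes that reached 10 TPM in either library were compared by their plain TPM ratio, with a 2-fold threshold, after the study. Exact 95% counting intervals (Poisson for a level, Clopper-Pearson for a ratio) were placed on the TPM scale. The calculation of those of the ratio was checked on simulated Poisson counts. Such counts hold no PCR copies or spread between cultures, so this cannot show how the intervals cover real libraries. The transcript length behind a row was taken as its count over its FPKM, scaled with genes of 1 transcript. The members and lists were chosen with earlier results of these data known. Genes named were the 9 RNAs, Sox2, their neighbours and inner snoRNAs and, per list, the highest, the lowest and those past 2-fold. Nop56, Col1a2, Col3a1, Pou5f1, Gm10052, Snhg10 and Snhg18 were added after their values were seen. Of the neighbours, 2 are not reported here.

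Alternatives were pseudocounts of 0.1 and 1, scaling by TMM (edgeR 4.0.16), size factors (DESeq2 1.42.0) or CPM, the FPKM ratio, centring, TPM rescaled after leaving out the 10 highest genes, a correction for the trend on length and GC content (medians in 20 bins each, for 97.4% of the genes), other filters and other thresholds. The sums over Snhg3 and Rcc1 and over Hnrnpa1 and Gm10052, the settings applied to the lists and the list without Mir17hg were chosen after seeing the data. Promoters came from RefSeq (GRCm38.p6), and other sequences and models from GENCODE M21. Analyses used Python 3.11.15 and R 4.3.3.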

Additional observations from a re-analysis of the deposited data

How the results depend on the processing

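The count of the 9 RNAs past 2-fold, 1 higher and 0 lower, was the same under all 15 alternative settings. The median of the 7 snoRNA hosts, 0.03 on the log2 scale, was -0.11 on the CPM scale, -0.11 by FPKM ratio and 0.14 with the trend on length and GC content removed. It stayed within the counting interval of its median gene under the other 13, those that left out 1 gene included. CPM and the FPKM ratio moved the median of all genes by -0.14, and the hosts stayed below it there, whereas they stood above it with the trend removed. Malat1 ran from 0.08 to 0.58. Hnrnpa1 turned from 2.60 to -0.67 when summed with Gm10052, by construction of that sum. No paired analysis was possible because each genotype had 1 library. Among the 9 RNAs, the counting interval of the ratio was narrowest for Malat1 and widest for Snhg6. Variation between cultures was not measured.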
